A study of Homo sapiens with 6 samples.

Results

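The collagen chains of SNU-449 cells, a human hepatocellular carcinoma line, were compared between 3 arrays labelled USP48 overexpression and 3 arrays of cells labelled vector, called empty vector here. Members were all genes whose symbol is COL, a number, A and a number, taken from probe sets annotated to that symbol alone. This gave 112 probe sets for 43 of the 19775 genes measured, with 11 fibrillar chains, 6 basement membrane chains of type IV and 26 other chains, and 1 further collagen gene was not analysed here. Each gene is represented by its brightest probe set, the one with the highest mean over all 6 arrays. Values are log2 RMA values, as deposited, and a difference is the mean of the USP48-labelled arrays minus the mean of the empty vector arrays.

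Per the labels, USP48, a ubiquitin-specific protease, was delivered with a lentivirus, and stably expressing cells were picked with puromycin. The same protocol text stands on the control samples and names only the USP48 virus, so how the control cells were made and selected is not stated. The promoter of the transgene and whether the lines are clones are not stated either. No label ties a replicate to a culture of its own, and each p-value therefore reads the spread between these 6 samples, part or all of which may be technical.

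Collagens are secreted proteins of the extracellular matrix, built as a triple helix of 3 alpha chains with glycine at regular intervals. Fibrillar collagens assemble into the banded fibrils of connective tissue and scar. Type IV chains form the sheet-like network of basement membranes, and FACIT collagens (fibril-associated collagens with interrupted triple helices) sit on the surface of fibrils. In the liver, stellate cells and fibroblasts are known as the main sources of fibrillar collagen, while hepatocytes lie along a space with a sparse basement membrane.

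USP48 itself was called higher by 0 of its 5 probe sets and lower by 2 of them, so groups are named here by their labels. The 18 hybridization control probe sets read control RNAs added for the hybridization and not the RNA of the cells. They averaged 9.79 ± 0.04 without and 10.09 ± 0.10 with the USP48 label (SD over 3 arrays, two-sided exact permutation p = 0.1, the lowest value possible with 3 arrays in each group). The difference between the 5′ and 3′ probe sets of GAPDH, a measure of RNA integrity, lay between −0.44 and −0.32 in the empty vector arrays and was −0.51, −0.45 and −1.31 in USP48 replicates 1, 2 and 3. For ACTB the same measure was −3.26, −3.42 and −3.70 against −3.88, −3.44 and −4.14, and the groups overlapped (exact permutation p = 0.2). The part of these measures in the collagen values was not tested. Hepatocyte markers gave 0 calls of 8, against 29.8% of all genes (1 at an unadjusted limma p under 0.05). TTR was at 0.20 and TF at 0.03, and 5 of the 8 lay below the array medians in both groups. ALB, the serum albumin of hepatocytes, averaged 2.07 in the empty vector and 2.14 in the USP48-labelled arrays, below the median of every array (3.75 to 3.79).

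Between the groups 9 of the 43 collagen genes (20.9%) passed the test, a limma adjusted p under 0.05 over all genes. Over all 19775 genes the share was 29.8%, so calls were no more frequent among collagens. Of the 9, COL4A1, COL4A3, COL16A1 and COL23A1 were higher and COL4A4, COL4A5, COL9A3, COL12A1 and COL15A1 were lower in the USP48-labelled arrays. Over all genes 15.7% were higher and 14.1% lower. A difference of at least 1 on the log2 scale (2-fold), past the same threshold, was found for COL9A3 and COL15A1, 2 of the 43, against 3.74% of all genes. The groups did not overlap for 15 of the 43 collagens, against 42.9% of all genes.

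The direction of the smaller increases depends on the scaling of the arrays. Scaled on the mean hybridization control, which moves the median of all genes from 0.05 to −0.24, 0 collagens were called higher and 15 lower, where 4.84% of all genes were higher and 37.9% lower. The 5 collagens called lower as deposited were also called lower there. COL4A1 was at 0.15 (limma adjusted p = 0.339) and COL23A1 at 0.02, while COL4A3 turned to −0.01 and COL16A1 to −0.03. With every single array left out in turn, COL4A1 and the 5 lowered chains were called each time. COL16A1 lost its call in each of these 6 fits but the one without USP48 replicate 2 (limma adjusted p = 0.0681 to 0.0874), and COL23A1 in each but the one without empty vector replicate 3 (0.055 to 0.143). COL4A3 lost it without empty vector replicate 1 or 3 or USP48 replicate 1 (0.0703 to 0.0988).

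Of the 43 genes, 22 had both group means above the median of every array, and 20 had both below it. Detection calls were not analysed here, so differences of the dim members are differences of RMA values and are given without a fold. Of the 9 called collagens, COL4A3 and COL15A1 were dim in this sense, and COL23A1 lay at the median. With the dimmest genes left out, 13183 genes and 23 collagens were tested and 9 of these were called, against 45.5% of the genes kept. COL1A1 and COL6A1 were then called lower, and COL4A3 and COL15A1 were not among the genes kept.

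**Figure D1:**
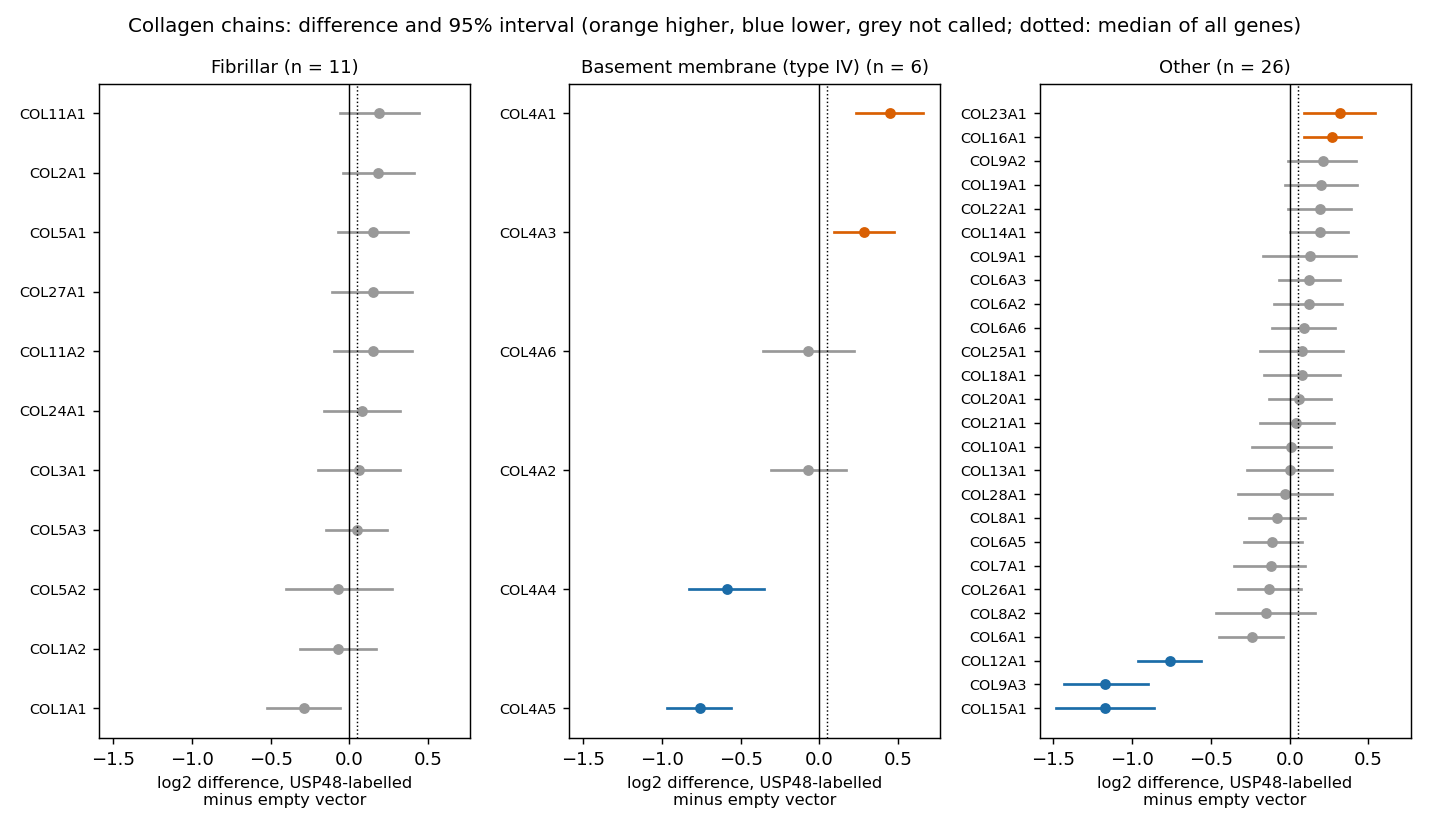
Log2 difference (points) and 95% limma interval (bars) for each of 43 collagen genes, in a panel for the 11 fibrillar, 6 type IV and 26 other chains, on a shared horizontal axis; the dotted line is the median of all genes, 0.05. The fibrillar points lie between −0.29 and 0.19, while the type IV points spread from −0.76 to 0.45 and the other chains reach −1.17.

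Type IV chains are encoded in 3 pairs of genes that lie head to head, COL4A1 with COL4A2, COL4A3 with COL4A4, and COL4A5 with COL4A6. Each pair is read in opposite directions from a short stretch between the genes. These stretches are shown because, as deposited, the calls of the 2 chains differed within each pair. Differing calls are no test of a difference between the chains. The sequences are given for the plus strand of GRCh38.p14, from RefSeq, with CCAAT and GGGCGG, on either strand, in capitals.
COL4A1/COL4A2, chr13:110307158-110307283: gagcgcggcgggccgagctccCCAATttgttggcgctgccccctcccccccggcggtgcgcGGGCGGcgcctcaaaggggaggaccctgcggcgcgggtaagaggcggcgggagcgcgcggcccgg
COL4A4/COL4A3, chr2:227164489-227164623: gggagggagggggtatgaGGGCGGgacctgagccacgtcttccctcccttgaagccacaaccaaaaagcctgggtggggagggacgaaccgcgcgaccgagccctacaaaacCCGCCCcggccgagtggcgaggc
COL4A6/COL4A5, chrX:108439588-108439837: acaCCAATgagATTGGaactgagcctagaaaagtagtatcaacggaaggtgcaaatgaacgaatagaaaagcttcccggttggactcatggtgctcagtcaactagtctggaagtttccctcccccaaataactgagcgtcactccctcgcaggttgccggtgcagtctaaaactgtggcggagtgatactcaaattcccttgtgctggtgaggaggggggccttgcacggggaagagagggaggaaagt

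The first sequence is the whole interval of 126 bases between COL4A1 and COL4A2, and the second the whole interval of 135 bases between COL4A4 and COL4A3. The third is the 250 bases before COL4A5, out of 379 between it and COL4A6. GC content was 80.2% in the first, 68.1% in the second and 51.2% in the third, where the medians of the same lengths before all 35116 start sites in the table were 60.3%, 60.0% and 58.0%. CCAAT was found 1 time in the first, 0 times in the second and 2 times in the third sequence, and it occurs in 21.1%, 22.1% and 32.0% of all such windows of the same lengths. GGGCGG was found 1, 2 and 0 times, against 34.6%, 35.5% and 42.6% of windows, and TATAAA 0 times in each, against 5.87%, 6.13% and 10.7%. The motifs do not overlap one another. These are matches of letters, and no binding was measured.

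COL4A1, one of the chains of the common basement membrane trimer, was at 7.95, 7.98 and 7.92 in the empty vector arrays and at 8.45, 8.52 and 8.22 in the USP48-labelled arrays. Every USP48-labelled array lay above every empty vector array, and the difference was 0.45, or 1.36-fold higher (SE 0.10, limma adjusted p = 0.00524). Its dimmer probe set was higher by 0.67 (limma adjusted p = 0.000732 over all probe sets). COL4A2, its partner in that trimer and its head-to-head neighbour, was at 9.01, 9.18 and 8.95 in the empty vector arrays and at 8.98, 9.14 and 8.79 in the USP48-labelled arrays. The groups overlapped, with a difference of −0.07 (95% interval −0.31 to 0.17, limma adjusted p = 0.658), and its dimmer probe set was at −0.31 (adjusted p = 0.179). After scaling on the hybridization controls the calls of the pair changed places: COL4A2 was called lower (−0.37, limma adjusted p = 0.0383) and COL4A1, at 0.15, was not called.

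Taken within each array, COL4A1 minus COL4A2 was −1.06, −1.20 and −1.03 in the empty vector arrays and −0.54, −0.62 and −0.57 in the USP48-labelled arrays. Such a difference between probe sets is no ratio of levels, but a constant added to all values of an array cancels in it. The shift was 0.52, the groups did not overlap, and the 4 pairs of probe sets of these genes gave shifts of 0.52 to 0.99. The two-sided exact permutation p was 0.1, or 0.214 after Benjamini-Hochberg adjustment over the 15 pairs of chains compared in this way. With 3 arrays in each group no pair could reach a p under 0.05. The groups did not overlap for 7 of the 15 pairs and overlapped for the others. For single genes the share without overlap was 42.9% of all genes, and no share over other gene pairs was computed.

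COL4A3, COL4A4 and COL4A5 form a trimer known from the basement membranes of kidney and lung. COL4A3 was at 2.95, 3.07 and 3.00 in the empty vector arrays and at 3.37, 3.23 and 3.28 in the USP48-labelled arrays, a difference of 0.28 (SE 0.08, limma adjusted p = 0.0279). All of these values lie below the median of every array, 0 of its 6 dimmer probe sets were called, and with the mean of all 7 probe sets the difference was 0.09 (adjusted p = 0.386). COL4A4 was at 4.52, 4.72 and 4.50 and then at 4.11, 4.06 and 3.80, with no overlap of the groups. It fell by 0.59 log2 units (SE 0.11, limma adjusted p = 0.00199), and its other probe sets were at −0.39 and 0.14, neither called. The within-array difference of COL4A3 minus COL4A4 shifted by 0.87 (exact permutation p = 0.1, adjusted over pairs 0.214), from −1.57 ± 0.08 to −0.70 ± 0.16 (SD, n = 3 each). Over the 21 pairs of their probe sets the shift ran from −0.35 to 0.87, and 17 were positive. COL4A4 minus COL4A5, of the same trimer, shifted by 0.18 with overlapping groups (exact permutation p = 0.3, adjusted over pairs 0.5). COL4A3 minus COL4A5 shifted by 1.04 without overlap (exact permutation p = 0.1, adjusted over pairs 0.214). Over the 14 pairs of their probe sets that shift ran from −0.24 to 1.04, and 12 were positive.

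COL4A5, the chain mutated in X-linked Alport syndrome, was at 7.69, 7.49 and 7.62 in the empty vector arrays and at 6.86, 6.92 and 6.73 in the USP48-labelled arrays. The groups lay well apart, and COL4A5 fell by 0.76 log2 units (95% interval −0.97 to −0.56, SE 0.09, limma adjusted p = 0.000132). Its only other probe set was dim and at 0.02 (adjusted p = 0.904). COL4A6, which joins COL4A5 in another trimer, was at 6.48, 6.54 and 6.11 and then at 6.38, 6.45 and 6.09. Its groups overlapped, and the difference was −0.07 (95% interval −0.36 to 0.22, limma adjusted p = 0.728). COL4A5 minus COL4A6 shifted by −0.69, from 1.22 ± 0.28 to 0.53 ± 0.10 (SD, n = 3 each, exact permutation p = 0.1, adjusted over pairs 0.214). Of the 6 pairs of their probe sets, 3 shifted the same way, with a range of −0.77 to 0.10.

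**Figure D2:**
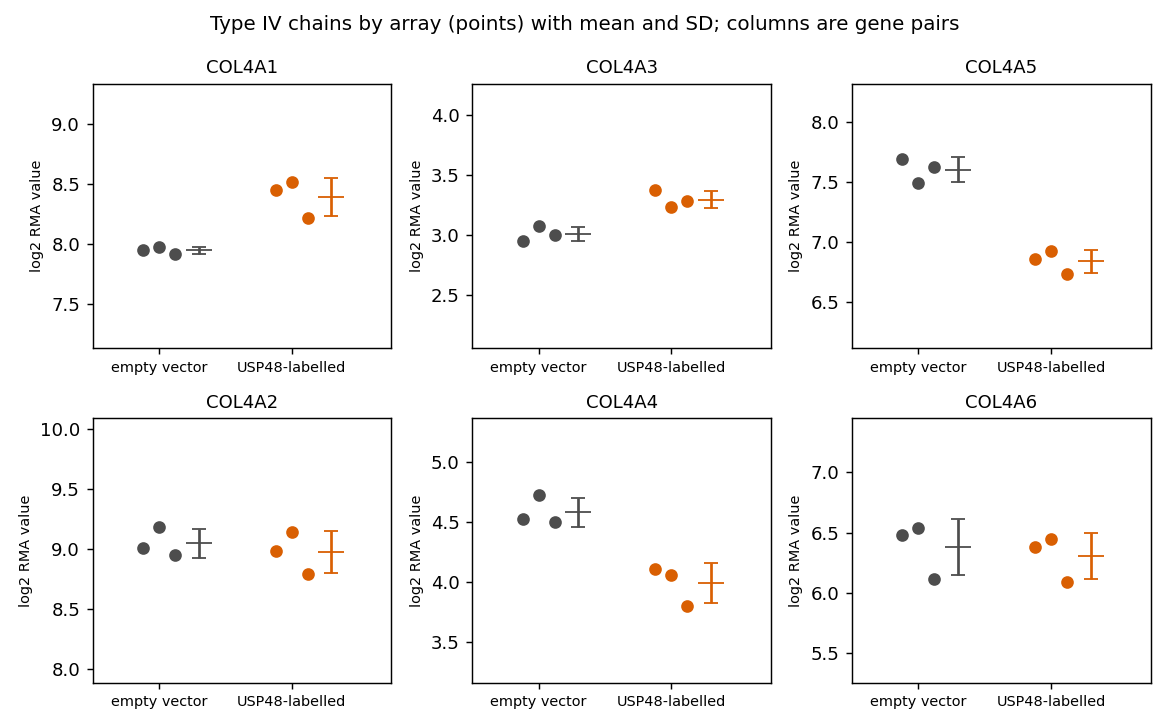
Log2 RMA values of the 6 type IV chains, 1 panel per gene with head-to-head partners in the same column; points are the 3 arrays of each group, and the bar beside them is the mean with its SD. Vertical axes span the same number of log2 units but start at different levels. COL4A1 and COL4A3 are higher and COL4A4 and COL4A5 lower in every USP48-labelled array, while the groups of COL4A2 and COL4A6 overlap; after scaling on the hybridization controls COL4A3 is at −0.01, COL4A1 is not called and COL4A2 is called lower at −0.37.

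The type IV class held 4 calls among 6 chains (66.7%, against 29.8% of all genes), 2 in each direction. Of the 6 chains, 5 had both group means above every array median. Calls were more frequent among brighter genes, with 45.5% called once the dimmest genes were left out. In that fit COL4A1, COL4A4 and COL4A5 were called, and COL4A3 was not among the genes kept. The median difference of the class was −0.07 against 0.05 for all genes. After scaling on the controls it was −0.37 against −0.24, with COL4A2, COL4A4 and COL4A5 called lower and 0 chains higher. Proteins that share the basement membrane with type IV collagen gave 4 calls of 13 measured genes, also 2 in each direction, with a median of 0.07. At 30.8% this share was near the 29.8% of all genes. The laminin chain LAMC1 was at −0.41 (limma adjusted p = 0.00348) and a second probe set of it at −0.77. HSPG2, the proteoglycan perlecan, was at −0.37 (adjusted p = 0.0226), with a dimmer probe set at 0.11, and lost its call without empty vector replicate 2 or USP48 replicate 1 or 3 (0.0653 to 0.0983). LAMA4 and LAMA1 were at 0.32 and 0.28 (adjusted p = 0.0458 and 0.0423), but at 0.03 and −0.01 after scaling on the controls, and LAMA4 was not called with the replicate block (adjusted p = 0.0809). LAMA1 lost its call without any array but empty vector replicate 2 (0.0602 to 0.14), and LAMA4 without any array but replicate 3 of either group (0.106 to 0.162). PXDN, the peroxidase that forms the sulfilimine crosslinks of the type IV network, was at 7.66, 7.76 and 7.51 in the empty vector arrays and at 6.69, 6.97 and 6.96 in the USP48-labelled arrays. It was 1.71-fold lower (difference −0.77, limma adjusted p = 0.000334), and its other probe set was at −0.83 (adjusted p = 0.00127).

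Fibrillar collagens gave 0 calls of 11 in limma, against 29.8% of all genes (1 at an unadjusted p under 0.05, COL1A1). Their median difference was 0.08, and 6 of the 11 had both group means below every array median. COL1A1, the major chain of type I collagen, was at 7.61, 7.59 and 7.65 in the empty vector arrays and at 7.52, 7.14 and 7.33 in the USP48-labelled arrays. The groups did not overlap, and the difference was −0.29 (95% interval −0.52 to −0.06, limma adjusted p = 0.0609). It passed with a variance trend over intensity (adjusted p = 0.0346), with dim genes left out (0.0353), without USP48 replicate 1 (0.0213) and after scaling on the controls (−0.58, adjusted p = 0.00186). COL1A2, the other chain of type I collagen, was dim, with a difference of −0.07. Type III collagen, COL3A1, was dim as well and at 0.06.

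COL5A1, a chain of the type V collagen that starts fibrils, was at 8.86, 9.04 and 8.97 in the empty vector arrays and at 9.18, 9.21 and 8.94 in the USP48-labelled arrays. These groups overlapped, with a difference of 0.15 (95% interval −0.07 to 0.37, limma adjusted p = 0.298). The next brightest COL5A1 probe set was called lower at −0.53 (limma adjusted p = 0.00582 over all probe sets), and the dimmest of the 3 was at −0.10. A dimmer probe set of COL1A1 was likewise called lower at −0.40 (adjusted p = 0.0102). For these 2 genes the call thus differed between probe sets. COL5A2, the partner chain of COL5A1, was dim and at −0.07, and COL5A3 was at 0.05.

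The remaining fibrillar chains were not called. COL11A2 and COL27A1, both known from cartilage, were each at 0.15, with means of 5.15 and 5.03 over all arrays. COL2A1, the main collagen of cartilage, COL11A1 and COL24A1 had both group means below every array median, with differences of 0.18, 0.19 and 0.08. After scaling on the controls the fibrillar median was −0.21, and COL1A1, COL1A2 and COL5A2 were called lower.

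Among the 26 other collagens, 2 were higher and 3 lower (19.2% called, against 29.8% of all genes). Their median difference was 0.05 (−0.24 after scaling on the controls). COL9A3, a chain of the FACIT collagen type IX, was at 6.09, 6.52 and 6.35 in the empty vector arrays and at 5.29, 5.06 and 5.12 in the USP48-labelled arrays. The groups lay far apart, and COL9A3 was 2.24-fold lower (difference −1.17, SE 0.12, limma adjusted p = 3.98e-05), on its only probe set. Its trimer partners were not called. COL9A1 was at 0.13 and COL9A2 at 0.21 (limma adjusted p = 0.521 and 0.150, 95% intervals −0.17 to 0.42 and −0.01 to 0.42). COL9A2 minus COL9A3 within each array shifted by 1.37, from −2.07 ± 0.06 to −0.70 ± 0.14 (SD, n = 3 each, exact permutation p = 0.1, adjusted over pairs 0.214).

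COL12A1, a FACIT chain that decorates type I fibrils, was at 7.85, 8.08 and 7.92 in the empty vector arrays and at 7.17, 7.16 and 7.26 in the USP48-labelled arrays. It was 1.69-fold lower with no overlap (difference −0.76, SE 0.09, limma adjusted p = 0.000123). A second bright probe set was at −0.87 (adjusted p = 9.79e-05) and a dim one at −0.29 (adjusted p = 0.0259), while the other two were not called. COL16A1, another FACIT chain, was at 6.37, 6.36 and 6.31 and then at 6.62, 6.55 and 6.68. Its difference was 0.27 (SE 0.08, limma adjusted p = 0.0309), a call kept without USP48 replicate 2 but without no other array (0.0681 to 0.0874). The remaining 5 FACIT chains were not called: COL14A1, COL19A1, COL20A1, COL21A1 and COL22A1 ranged from 0.04 to 0.20.

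COL15A1 encodes a multiplexin, a proteoglycan collagen of the basement membrane zone. Its only probe set was at 2.46, 2.93 and 2.32 in the empty vector arrays and at 1.42, 1.46 and 1.31 in the USP48-labelled arrays. The difference was −1.17 (SE 0.14, limma adjusted p = 0.000127), on values that all lie below the median of every array. COL18A1, the related multiplexin that carries endostatin, was at 0.08 (limma adjusted p = 0.631). COL23A1, a transmembrane collagen, was at 3.55, 3.70 and 3.86 and then at 3.95, 3.99 and 4.12, a difference of 0.32 (SE 0.10, limma adjusted p = 0.0358) that kept its call without empty vector replicate 3 but without no other array (0.055 to 0.143). The transmembrane chains COL13A1 and COL25A1 were at 0.00 and 0.08.

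**Figure D3:**
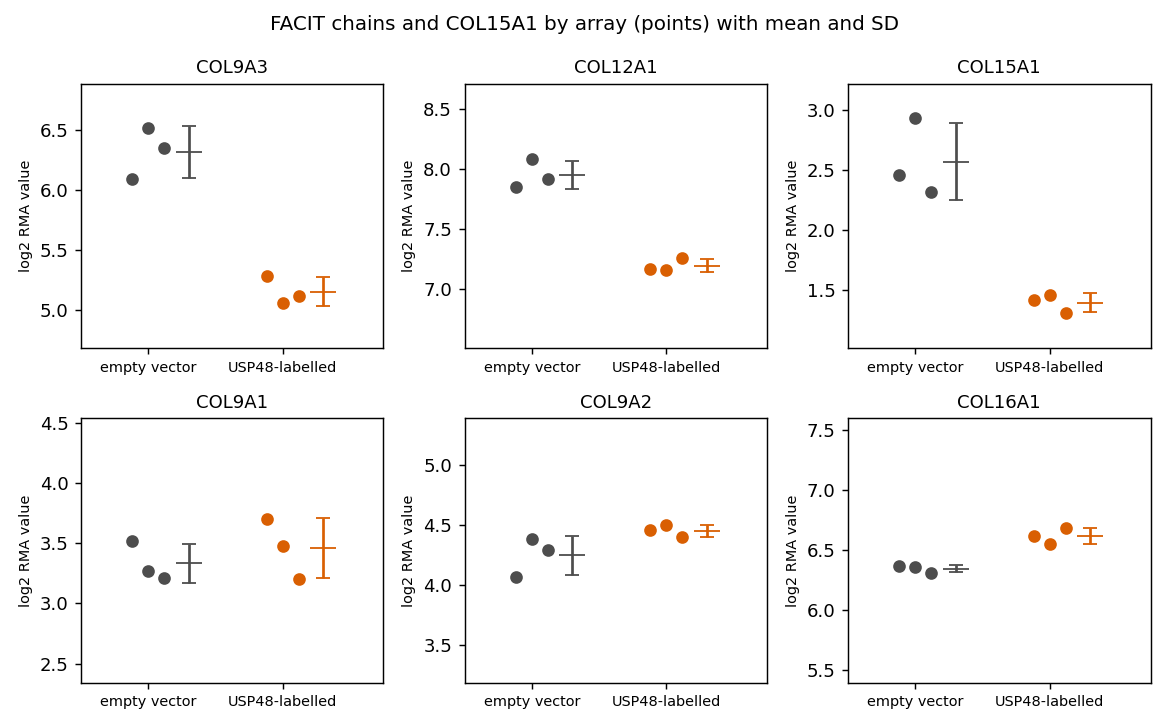
Log2 RMA values of the FACIT chains COL9A3, COL12A1, COL9A1, COL9A2 and COL16A1 and of the multiplexin COL15A1; points are the 3 arrays of each group, with the mean and SD beside them, and each vertical axis spans the same number of log2 units. COL9A3, COL12A1 and COL15A1 are lower in every USP48-labelled array, and COL16A1 is slightly higher (−0.03 after scaling on the hybridization controls).

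Type VI collagen forms beaded filaments around cells. In limma 0 of its 5 chains were called, against 29.8% of all genes (1 chain at an unadjusted p under 0.05). COL6A1 was at 8.18, 8.26 and 7.99 in the empty vector arrays and at 7.90, 7.94 and 7.86 in the USP48-labelled arrays, a difference of −0.24 without overlap (95% interval −0.45 to −0.04, limma adjusted p = 0.0753). It passed without empty vector replicate 3 (adjusted p = 0.035), with the variance trend (0.0437), with dim genes left out (0.044) and after scaling on the controls (−0.53, adjusted p = 0.00181), and a dim probe set of it was called higher at 0.31 (adjusted p = 0.0460). COL6A2 and COL6A3 were at 0.12 each, and the dim COL6A5 and COL6A6 at −0.11 and 0.09. COL7A1, which builds the anchoring fibrils of skin, was at −0.12 (limma adjusted p = 0.409), and was called lower after scaling on the controls (−0.42, adjusted p = 0.00983).

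The short-chain network collagens COL8A1, COL8A2 and COL10A1 gave differences of −0.08, −0.15 and 0.01, all with both group means below every array median. COL26A1 and COL28A1 were at −0.13 and −0.03. For all 34 collagens not called, the 95% interval of the brightest probe set, as deposited, lay inside 1.5-fold in either direction. For the dim ones among them this limits the RMA values only and gives no bound on a change of the RNA.

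Of the 43 genes, 35 had several probe sets. Probe sets of 0 genes were called in opposite directions, and of the 69 dimmer probe sets 6 were called, 2 higher and 4 lower. A mean over all probe sets of each gene kept COL4A1 higher and COL4A4, COL4A5 and COL12A1 lower, while COL4A3 lost its call. COL16A1, COL23A1, COL9A3 and COL15A1 have only 1 probe set. Their differences could not change in this way, and their calls stayed.

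**Figure D4:**
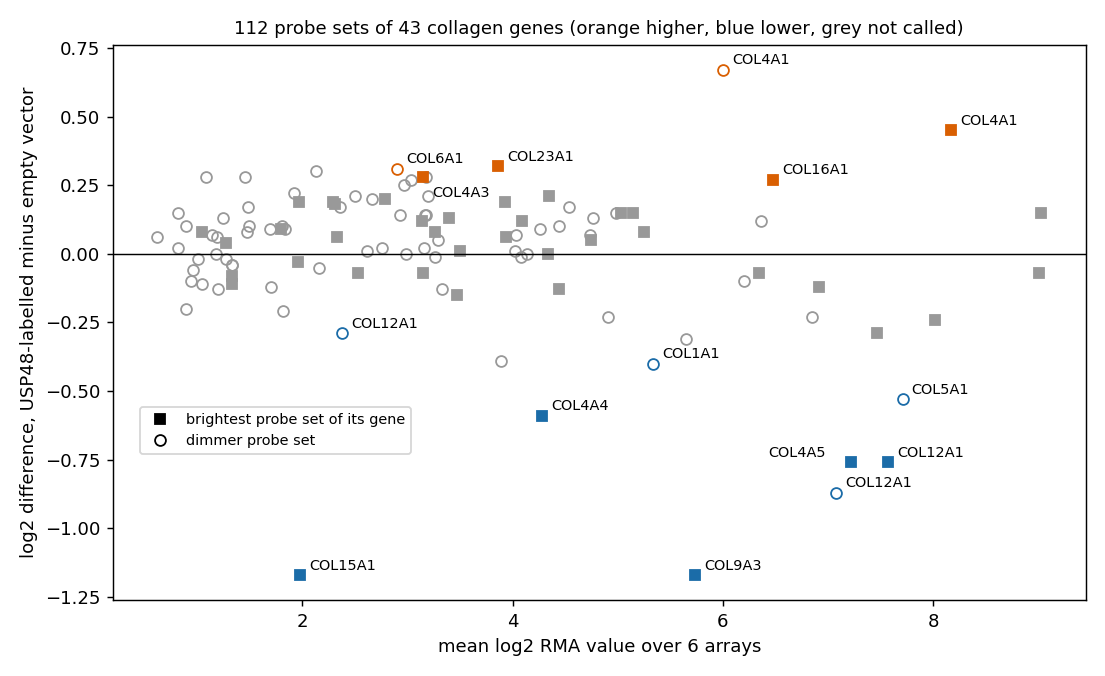
Log2 difference against mean log2 RMA value over 6 arrays for the 112 probe sets of 43 collagen genes; filled squares are the brightest probe set of each gene and open circles the dimmer ones, and probe sets past an adjusted p of 0.05 are named. COL4A1 and COL12A1 have 2 bright probe sets that moved together, while COL5A1 and COL1A1 have called probe sets that are not the brightest.

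Before secretion, collagen chains are hydroxylated, folded and checked in the endoplasmic reticulum. Of 19 genes for these steps, 1 was higher and 2 were lower (15.8% called, against 29.8% of all genes), with a median of −0.06. FKBP14, a prolyl isomerase of collagen folding, was at −0.49 (limma adjusted p = 0.0207), with dimmer probe sets at −1.55 and −0.75, both called. CRTAP, of the prolyl 3-hydroxylation complex, was at −0.28 (adjusted p = 0.0381), with dimmer probe sets from −1.37 to −0.09. P3H2, a prolyl 3-hydroxylase that acts on type IV collagen, was at 0.29 (adjusted p = 0.0186), with its other probe set at 0.02 and the mean of both at 0.15 (adjusted p = 0.254). It was at 0.00 after scaling on the controls, where the list gave 14 calls of 19. In that fit 37.9% of all genes were called lower and 4.84% higher. None of these 3 calls held in every fit that left out 1 array: FKBP14 lost it without empty vector replicate 1 or 3 or USP48 replicate 1 or 2 (adjusted p = 0.0587 to 0.0804), CRTAP without any array but USP48 replicate 2 (0.0722 to 0.125) and P3H2 without empty vector replicate 2 (adjusted p = 0.074).

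Secretion, trimming and crosslinking gave 3 higher and 5 lower calls of 21 genes (38.1% called, against 29.8% of all genes), with a median of −0.11. Not all of these calls held over probe sets. MIA3, counted as higher at 0.28, had a dimmer probe set called lower at −0.92 (limma adjusted p = 0.00035 over all probe sets). LOXL2, counted as lower at −0.34, had no dimmer probe set that was called. TGM2, a transglutaminase that crosslinks matrix proteins, was at 6.13, 5.72 and 5.91 in the empty vector arrays and at 7.06, 7.50 and 6.93 in the USP48-labelled arrays. It was 2.37-fold higher without overlap (difference 1.24, limma adjusted p = 0.000132), and 2 of its 3 dimmer probe sets were also called higher. LOXL1, a lysyl oxidase, was 1.87-fold lower (−0.90, adjusted p = 4.23e-05). TLL1, a protease that trims fibrillar procollagen, was at −1.24 (adjusted p = 0.000205) on values below the array medians, with a dimmer probe set at −0.14.

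Of 9 collagen receptors and uptake genes, 1 was higher and 2 were lower, with a median of −0.01. The share of calls was 33.3%, against 29.8% of all genes. Of the integrin subunits that bind collagen, ITGA1 and ITGA2 were called, in opposite directions, while ITGA10, ITGA11 and ITGB1 were at 0.31, 0.19 and −0.01 and were not called (limma adjusted p = 0.0569, 0.384 and 0.921). ITGA1, which prefers type IV collagen, was at 6.03, 5.82 and 5.86 in the empty vector arrays and at 4.21, 4.17 and 4.65 in the USP48-labelled arrays, 2.95-fold lower (difference −1.56, limma adjusted p = 1.07e-05). ITGA2, which prefers fibrillar collagen, was at 6.16, 5.95 and 6.08 and then at 7.40, 7.25 and 7.36, 2.42-fold higher (difference 1.27, adjusted p = 4.31e-06). Each had a further called probe set in the same direction, at −0.49 for ITGA1 and 0.98 for ITGA2. MRC2, a receptor that takes up collagen fragments, was at −0.45 (adjusted p = 0.00554), with a dimmer probe set at −0.07.

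Markers of fibroblasts and stellate cells, the cells best known for collagen, gave 0 higher and 3 lower calls of 9 (33.3%, against 29.8% of all genes), and the sum of their log2 values ran from 48.5 to 49.5 in the empty vector arrays and from 45.6 to 46.7 in the USP48-labelled arrays. LUM and DCN, proteoglycans that bind collagen fibrils, were at −1.35 and −1.14 (limma adjusted p = 9.01e-06 and 1.49e-05), and VIM, an intermediate filament protein, at −0.42 (adjusted p = 0.00714, and 0.0555 with the mean of its 2 probe sets). The other 6 markers, THY1, PDGFRA, PDGFRB, FAP, ACTA2 and TAGLN, were not called, with differences of −0.17 (ACTA2) to 0.28 (FAP). The part of these markers in the collagen values was not tested. All samples are labelled as SNU-449 cells, and the labels name no other cell type. In these bulk samples fewer cells expressing a gene and less RNA per cell cannot be told apart. The endothelial list gave 1 lower call of 4 (25.0%, against 29.8% of all genes). This was CDH5 at −0.42 (limma adjusted p = 0.0128, and 0.0586 without empty vector replicate 2). The leukocyte list gave 0 of 4 (2 at an unadjusted limma p under 0.05), with CD3E at 0.21 and ITGAM at 0.23.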

How the data were processed

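The deposited values are log2 expression values, 1 for each of 54675 probe sets on 6 arrays, which the authors made with RMA (robust multi-array average), as the submitters' processing notes list it. Which version and settings they used is not given in the sources used here. Values ran from 0.19 to 13.24. Array number, 3 per group, limits the precision. Of the probe sets, 41091 named 1 gene, 1801 several and 11721 none in the platform annotation, and 62 were controls.

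The fit was limma 3.58.1 (R 4.3.3), unfiltered, with two-sided p-values adjusted by Benjamini-Hochberg over 19775 genes and called under 0.05. Tested on simulated data for this comparison (19775 genes), it recovered 88% of 100 genes given a change of 1 log2 unit and 38% of 100 given 0.5. Only these genes were changed in the simulation, whereas 29.8% of all genes were called in the data. The adjusted threshold was therefore stricter in the simulation, and these shares are not the sensitivity reached in the data. Chain pairs were compared with an exact permutation test, a step added after the values were seen. Named are all called collagens, the 3 brightest uncalled ones in each class, and of each other list up to 4 called genes with the largest difference, or the 2 brightest where none was called; genes beyond the rule were added after their values were seen, to account for all members. Members, classes and lists were chosen with earlier results of these data known. Alternatives were other normalizations, scaling on the hybridization controls, a variance trend, a filter on dim genes, other uses of the probe sets, a replicate block, other thresholds and each array left out. Promoter sequences are from a RefSeq table of GRCh38.p14, which held 31 of the 43 genes. Figures used matplotlib 3.10.9.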

Additional observations from a re-analysis of the deposited data

How the results depend on the processing

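Quantile normalization, median centring and the replicate block kept the same 9 collagen calls. The correlations of same-numbered deviations were 0.00, 0.17 and 0.02, low and highest for replicate 2. What same-numbered arrays share is not stated in the labels, and these values do not settle whether the numbers pair the arrays. With the replicate block 5824 genes, 4 higher and 5 lower collagens were called, as against 5897, 4 and 5 without it. Scaling on the hybridization controls gave 0 higher and 15 lower collagens, and medians of −0.21, −0.37 and −0.24 for fibrillar, basement membrane and other collagens. It gave 14 calls of 19 in the modification list and 6 of 9 in the receptor list, where 8452 of all 19775 genes were called. It also turned COL4A3 to −0.01, COL16A1 to −0.03, P3H2 to 0.00 and LAMA1 to −0.01. That scaling lowers each difference by the same amount, by construction. With every probe set on its own 9 collagen probe sets were lower. An adjusted p under 0.01 left 3847 genes and 1 higher collagen, and a limit of 1.5-fold left 2210 and 0. The mean of all probe sets left 2 calls among basement membrane partners and put the chain shifts at 0.75 (COL4A1 against COL4A2), 0.37 (COL4A3 against COL4A4) and −0.35 (COL4A5 against COL4A6). Leaving out each array gave 1 to 3 higher collagens, the lowest without empty vector replicate 1 or USP48 replicate 1. It gave 1 to 3 calls in the modification list (1 without any single empty vector array or USP48 replicate 1), 3 to 5 in the receptor list (5 without empty vector replicate 3) and 1 to 3 among basement membrane partners (1 without USP48 replicate 1, 2 without empty vector replicate 1 or 2 or USP48 replicate 3). The cause of these changes was not tested. Over 39 named genes, 477 of 543 values under the alternatives kept their direction and side of the threshold or stayed uncalled. Of the others 50 lost and 12 gained a call and 4 reversed, and 16 uncalled values changed sign. Some of the 543 values could hardly change. Every probe set on its own left each difference as it was, as did the mean of all probe sets for genes with 1 probe set. Dim members rest on values near the lower end of the scale, where signal over background is not known.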
